A study of Mus musculus with 23 samples.

Results

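The genes described here encode the machinery that brings proteins into mitochondria. They were read in hippocampal mRNA from 23 libraries of male, wild type C57BL/6 mice, an inbred laboratory strain. Members were chosen by name and by level: protein-coding genes named Timm or Tomm followed by a digit, and 15 further import genes taken by symbol (Timmdc1, Pam16, Dnajc15, Dnajc19, Grpel1, Grpel2, Hspa9, Chchd4, Gfer, Samm50, Mtx1, Mtx2, Romo1, Pmpca and Pmpcb). Of the 51912 genes in the tables, 40 carried such a name. A mean normalized count of at least 10 was required in fathers and in offspring alike, and 38 remained. Timm8a2, at a mean of 0.748 over all libraries, and Tomm20l, at 0.137, were left out. The lowest member kept was Timm21, at 245 normalized counts, so no gene lay near the threshold. Timm17a was known from the authors' deposited comparison to differ between the groups of offspring. Its values in that comparison, and in the test of the difference between generations that contains it, are therefore not independent evidence. The same holds for its spread among those libraries and for its contrasts of fathers with offspring, which use them.

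The study asked whether exercise in fathers is reflected in the brain of their offspring. The fathers were 4 exercised animals, which ran 40 minutes a day on a treadmill for 6 weeks, and 4 that were kept without it; both groups were killed at 7 months. The offspring were 7 males sired by exercised fathers and 8 sired by sedentary fathers, killed at 5.5 months and themselves not labelled as exercised. The labels do not name the father of each of the offspring, and do not say that libraries came from separate animals, so p-values measure the spread between these libraries, which may be partly technical. The 7 titles in offspring of exercised fathers share 4 stems, 6 of them in pairs, whereas the 8 titles in offspring of sedentary fathers have 8; whether a stem marks a litter is not stated, and if it does, the 7 are not independent.

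Nearly all mitochondrial proteins are made in the cytosol and are imported. The TOM complex receives them at the outer membrane; TIM23 threads those with a cleavable presequence through the inner membrane, pulled by the PAM motor; TIM22 and the small TIM chaperones handle multispanning carrier proteins. The MIA relay folds cysteine-rich proteins of the intermembrane space, the SAM complex inserts beta-barrel proteins into the outer membrane, and the matrix processing peptidase removes presequences. Neurons depend heavily on mitochondria at synapses, far from most of the translation in the cell body.

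The promoters of 4 members are shown because they stand for the patterns that were counted: both isoforms of the TIM23 subunit Tim17, and a receptor pair with a match to NRF1 or to GABPA, factors known for regulating nuclear genes of mitochondria. Sequences are RefSeq promoters of build GRCm38.p6, read 5′ to 3′ on the gene's strand and cut to the stretch outside annotated exons; capitals mark motif matches (CCAAT in Timm17a and Timm17b, NRF1 in Tomm20, ETS in Tomm22). The Timm17a stretch lies at chr1:135313779-135313987 on the minus strand, that of Timm17b at chrX:7899270-7899335 on the plus strand, that of Tomm20 at chr8:126945922-126946171 on the minus strand and that of Tomm22 at chr15:79670618-79670860 on the plus strand.
Timm17a: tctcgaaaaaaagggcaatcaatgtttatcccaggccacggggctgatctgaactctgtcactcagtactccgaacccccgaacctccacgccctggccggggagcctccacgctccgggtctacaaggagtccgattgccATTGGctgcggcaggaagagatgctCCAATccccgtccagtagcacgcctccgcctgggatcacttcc
Timm17b: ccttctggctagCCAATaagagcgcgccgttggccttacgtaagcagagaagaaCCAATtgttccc
Tomm20: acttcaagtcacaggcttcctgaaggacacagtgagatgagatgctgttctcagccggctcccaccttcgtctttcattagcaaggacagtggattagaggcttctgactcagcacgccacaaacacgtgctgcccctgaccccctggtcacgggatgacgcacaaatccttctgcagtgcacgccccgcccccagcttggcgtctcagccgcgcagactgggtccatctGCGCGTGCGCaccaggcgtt
Tomm22: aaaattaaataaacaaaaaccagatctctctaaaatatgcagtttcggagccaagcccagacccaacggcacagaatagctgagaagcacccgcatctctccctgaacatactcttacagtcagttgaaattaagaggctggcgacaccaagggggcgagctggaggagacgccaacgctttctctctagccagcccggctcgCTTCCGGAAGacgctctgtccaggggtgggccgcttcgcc

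RefSeq promoters were found for 33 of the 38 members, as 35 windows of the 250 bases before a start site, because some genes have several starts. Each motif was searched on both strands. The ETS motif CCGGAAG, the core bound by GABPA, was in 15 of the 35 windows (42.9%), against 6.91% of all 32851 windows in the table and 11.3% of the 15814 windows of genes tested here. Members with it included the peptidase subunits Pmpca and Pmpcb, the outer membrane genes Tomm22, Mtx1 and Mtx2, the channel gene Timm23, Tomm34 and Romo1. The NRF1 motif (GCGCA, any base, GCGC) was in 4 windows (11.4%), against 3.74% of all windows and 6.85% of those of tested genes; it occurred in Tomm20, Chchd4, Pam16 and Romo1. CCAAT was in 9 windows (25.7%), a smaller share than the 33.8% of all windows. The YY1 motif AAGATGGC was in 0 of 35 windows, against 1.56% of all, and the ERR motif TCAAGGTCA in 1 of 35 (2.86%), in Timm8b, against 0.387%. These shares are descriptions of the letters in these windows, and no test was run on them. Timm17a and Timm17b held CCAAT matches and no match to the ETS or NRF1 letters over their whole windows, of which the lines above print the part outside exons.

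All members were well measured in this tissue. The libraries held 33667580 to 55172616 reads, and the 10 markers of hippocampal neurons that were listed were all detected in every group, the lowest at a group mean of 453 normalized counts. Markers of choroid plexus, the tissue that makes cerebrospinal fluid, varied far more: the summed level of the 10 listed genes, all of them detected, ran from 2515 to 183928 normalized counts in sedentary fathers, from 52942 to 192795 in exercised fathers, from 3170 to 187525 in offspring of sedentary fathers and from 3665 to 206708 in offspring of exercised fathers. Markers of thalamus and habenula reached 22360 in sedentary fathers, against at most 10988 in the other groups. Sedentary fathers 1 and 2 were the lowest of their group in choroid plexus markers, and sedentary fathers 3 and 4 were high in both lists. In bulk tissue, fewer cells of a type and less RNA per cell cannot be told apart.

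Levels of different genes are compared as normalized counts per kilobase of exon. Exon length here is that of all annotated exons of a gene, merged over its transcripts. The lengths of the transcripts present in this tissue were not estimated. Orders and ratios between genes, here and below, depend on the merged length. The receptor Tomm20 was the most abundant member, at 3235 ± 129 per kilobase (SD, n = 23), followed by the small TIM chaperone gene Timm8b, at 2788 ± 243, and by Hspa9, the mitochondrial Hsp70 at the centre of the PAM motor, at 2148 ± 75.0. The small TOM subunit Tomm6 stood next, at 2109 ± 217. Its libraries ran from 1777 to 2675 and those of Hspa9 from 2016 to 2285, so these neighbours overlapped widely. The least abundant were Timm21, a TIM23 subunit, at 65.9 ± 4.51, and Dnajc15, a J protein of the motor, at 96.4 ± 8.43; their libraries did not overlap.

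By complex, the 9 genes of the TOM group had the highest median, 1205 per kilobase. That median is the value of Tomm34, which was placed in the group by its symbol. The lowest mean in the group was 347 (Tomm40l, a close relative of the pore gene Tomm40). The 8 genes of the TIM22 group had a median of 491 and spanned the range from Timm10b, at 193, to Timm8b. The 6 TIM23 genes had a median of 347 and were led by the channel gene Timm23, at 1182 ± 66.5. The 7 genes of the motor had a median of 247, with Hspa9 far above its partners; the J proteins Dnajc19, at 176 ± 9.01, and Dnajc15 and the exchange factor Grpel2, at 119 ± 5.08, were the lowest of them. The relay genes Chchd4 and Gfer stood at 228 and 194, and the SAM genes between 198 (Mtx1) and 351 (Samm50).

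**Figure D1:**
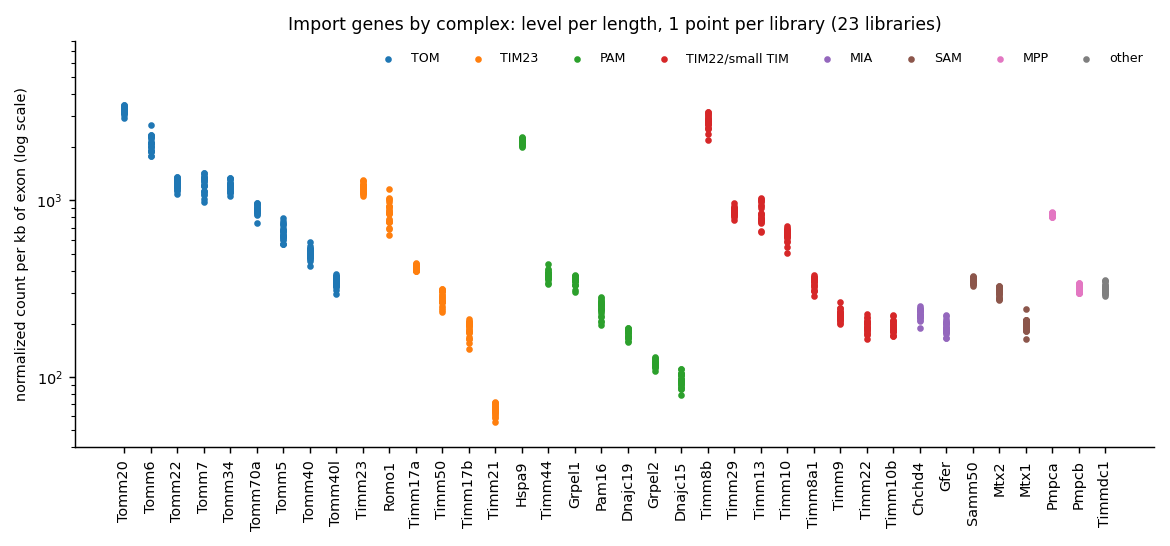
Normalized count per kilobase of exon (log axis) for the 38 import genes, ordered within each complex by mean level; each point is 1 of 23 libraries. Tomm20, Timm8b, Hspa9 and Tomm6 lie at 1777 or higher in every library, and Timm21 lies below 72.3 in every library.

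Related genes were compared by their ratio in each library. Timm17a exceeded Timm17b, both encoding the Tim17 subunit of the TIM23 translocase, by 2.24 ± 0.276 times per kilobase (SD, n = 23), with a range of 1.97 to 3.04 over libraries. Group means of this ratio were 2.26 in sedentary fathers and 2.09 in exercised fathers. They were 2.42 in offspring of sedentary fathers and 2.11 in offspring of exercised fathers. The offspring ratios contain the difference for which Timm17a was singled out. Timm8b exceeded Timm8a1, whose human counterpart is mutated in deafness-dystonia syndrome, by 8.11 ± 0.621 times. Grpel1 exceeded Grpel2, both nucleotide exchange factors of Hspa9, by 2.97 ± 0.212 times. The pore gene Tomm40 exceeded Tomm40l by 1.45 ± 0.0682 times, the peptidase subunit Pmpca exceeded Pmpcb by 2.62 ± 0.125 times, and Dnajc19 exceeded Dnajc15 by 1.84 ± 0.170 times. In all 6 pairs the first gene was the higher one in every library. No test was run on these ratios.

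Exercise in the fathers was examined first. None of the 38 members passed an adjusted p of 0.05 in limma, a linear model with a shared estimate of the spread fitted across all 17493 genes, and 0.0% of all genes passed it. At an unadjusted p under 0.05 there were 2 members, or 5.26%, against 8.01% of all genes. In edgeR and in DESeq2 alike, 0 members passed the adjusted threshold and 1 had an unadjusted p under 0.05. Over all 17493 genes in DESeq2, 66 passed the adjusted threshold and 1339 had an unadjusted p under 0.05. In 28 of 38 members the mean was higher in exercised fathers, against 51.2% of all genes, and the median log2 difference was 0.026, against 0.003 over all genes. Members rose and fell together between libraries. The number above their group mean ran from 11 (sedentary father 1) to 29 (sedentary father 4), and from 14 to 28 in exercised fathers. Counts by direction, here, by complex and in offspring, are therefore not counts of independent genes. No member had groups that did not overlap, against 5.0% of all genes.

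The smallest p belonged to Timm13, a small TIM chaperone of the intermembrane space. Its normalized counts were 918, 1045, 1066 and 1146 in sedentary fathers 1 to 4 and 1094, 1146, 1167 and 1278 in exercised fathers 1 to 4. The exercised libraries reached higher and the groups overlapped. The log2 difference was 0.17 (SE 0.07, 95% interval 0.01 to 0.33), and limma's adjusted p was 0.618. It was 0.11 without sedentary father 1, 0.08 without sedentary fathers 1 and 2, and 0.26 without sedentary fathers 3 and 4. Chchd4, the oxidoreductase of the MIA relay, read 1140, 1252, 1147 and 1160 in sedentary fathers and 1245, 1306, 1236 and 1257 in exercised fathers. Only sedentary father 2 reached the range of the exercised group. Its log2 difference was 0.10 (SE 0.04), with an adjusted p of 0.618 in limma. For fathers, the authors' deposited table gives an unadjusted p of 0.494 for Timm13 and 0.355 for Chchd4. It lists 0 of 38 members at an unadjusted p under 0.05.

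Next in order of p came Timm10b, another small TIM gene, at a log2 difference of 0.13 (SE 0.06), and the small TOM subunits Tomm7, at 0.11 (SE 0.05), and Tomm6, at 0.14 (SE 0.07). Their adjusted p in limma lay between 0.619 and 0.633. Tomm6 was at 0.09 without sedentary father 1, at 0.03 without sedentary fathers 1 and 2, and at 0.24 without sedentary fathers 3 and 4. By complex, the mean was higher in exercised fathers for 7 of 9 TOM genes, 5 of 6 TIM23 genes, 6 of 8 genes of the TIM22 group, 3 of 7 motor genes, 2 of 2 relay genes, 2 of 3 SAM genes and 2 of 2 peptidase genes. The largest differences below 0 were in Mtx2, an outer membrane partner of Samm50, at -0.08, and Timm9, at -0.08. These counts touch on tissue makeup: choroid plexus markers were higher in exercised fathers for 10 of 10 genes (median log2 difference 1.90) and thalamus and habenula markers lower for 9 of 9 tested. Endothelial markers were lower for 8 of 8, 4 of them at an unadjusted p under 0.05 (median -0.22), meningeal fibroblast markers for 6 of 6 and erythrocyte markers for 5 of 5. No gene of these lists passed the adjusted threshold in limma. Without sedentary father 4 the number of members at an unadjusted p under 0.05 was 7, and without sedentary fathers 3 and 4 together it was 6. It was 0 without sedentary father 1 and 0 without exercised father 2 or 4. With the choroid plexus markers as a covariate there were 0 such members, with a median log2 difference of 0.013 (Timm13 at 0.11 and Tomm6 at 0.07). With the thalamus and habenula markers as a covariate there were 6, with a median of 0.062 (Timm13 at 0.31 and Tomm6 at 0.25). The adjusted count was 0 in each case. Over all genes, the main fit had 1402 of 17493 at an unadjusted p under 0.05. This count ran from 842 to 2747 over the 25 alternatives run in fathers. The member counts in these refits are therefore not read as particular to import genes. The part of the endothelial, meningeal and erythrocyte lists was not tested.

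The offspring were compared in the same way. Again 0 of 38 members passed the adjusted threshold in limma, against 0.0% of 17522 genes, and 1 member (2.63%) had an unadjusted p under 0.05, against 9.85% of genes. edgeR gave 0 members past the adjusted threshold and 1 at the unadjusted one, and DESeq2 gave 1 past the adjusted threshold, Timm17a, against 0.274% of all genes (48 of 17522). The mean was higher in offspring of exercised fathers for 21 of 38 members, against 49.6% of all genes, with a median log2 difference of 0.010, against -0.001 over all genes. The members that were higher were spread over the complexes, from 4 of 9 in TOM and 4 of 6 in TIM23 to 2 of 7 in the motor and 3 of 3 in SAM. Choroid plexus markers had a median log2 difference of 0.05 in this comparison, and endothelial markers were lower for 8 of 8 genes (median -0.08). Of either list 0 genes passed the adjusted threshold in limma, and 0 and 1 had an unadjusted p under 0.05. Oligodendrocyte markers were lower for 6 of 6 (median -0.08) and thalamus and habenula markers for 8 of 9 tested. Astrocyte markers were lower for 5 of 6, 2 of them at an unadjusted p under 0.05, and meningeal fibroblast markers were higher for 5 of 6. With a choroid plexus covariate 1 member had an unadjusted p under 0.05, with a median of 0.011. With a thalamus and habenula covariate 3 had, with a median of -0.003. Over all genes, the count at that unadjusted p ran from 1207 to 2453 over the 31 alternatives. These member counts are therefore not read as particular to import genes, and the part of the endothelial and other remaining lists was not tested.

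Timm17a, a subunit of the inner membrane translocase whose protein is known to be short-lived and cleared by the protease YME1L under stress, was the exception among the members. The gene spans chr1:135295213-135313778 on the minus strand. In offspring of sedentary fathers it ran from 3257 to 3478 normalized counts, with a median of 3372, and in offspring of exercised fathers from 3137 to 3232, with a median of 3167. Every library of the second group lay below every library of the first. It was the sole member whose groups did not overlap, 1 of 38 (2.63%), and groups did not overlap in that direction for 0.0742% of all genes. The gene was singled out for this contrast, so nothing is read from that share.

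The difference was small. Means were 3381 ± 74.8 (SD, n = 8) and 3172 ± 33.2 (SD, n = 7), a log2 difference of -0.09 (SE 0.02, 95% interval -0.14 to -0.04), a change of -6.18%. It ranked 61st by p among all genes in limma, with an adjusted p of 0.368, and did not pass. DESeq2 on the same reads gave an adjusted p of 0.0200, at a log2 difference of -0.09, and edgeR gave 0.392. With 1 value per title stem limma gave -0.09, with an adjusted p of 0.609. The authors' deposited table gives Timm17a a log2 fold change of -0.0911 (standard error 0.0197) and an adjusted p of 0.0149 in offspring, and the next member in the authors' deposited table is Grpel2, at an adjusted p of 0.480. Of 12544 genes given an adjusted p for offspring, the authors' deposited table lists 11 under 0.05, and 1 of 38 members. For fathers the authors' deposited table lists 14 of 24357 genes under 0.05, and 0 of 38 members. The call on Timm17a thus depended on the tool, and the direction held under each of the 31 alternatives run, from -0.10 to -0.06. In 15 of these 1 library was left out, which could not reverse the direction because the groups did not overlap.

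In the fathers, Timm17a read 3233, 3233, 3298 and 3225 in sedentary animals 1 to 4 and 3254, 3304, 3305 and 3212 in exercised animals 1 to 4. The groups overlapped, and the log2 difference was 0.01 (SE 0.03, 95% interval -0.06 to 0.08; adjusted p 0.940 in limma). The test of the difference between generations, the effect in fathers minus that in offspring, gave 0.10 (SE 0.04, 95% interval 0.03 to 0.17), with an adjusted p of 0.775. It did not pass, so the effects are not shown to differ. The means of both groups of fathers, 3247 ± 34.0 and 3269 ± 44.6 (SD, n = 4 each), lay between those of the offspring groups.

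The paralog Timm17b, on the X chromosome, did not follow it. Its normalized counts were 418, 468, 461 and 530 in sedentary fathers and 494, 507, 501 and 521 in exercised fathers; they ran from 368 to 547 (median 465) in offspring of sedentary fathers and from 432 to 527 (median 498) in offspring of exercised fathers. The groups overlapped in both generations. Its log2 difference was 0.11 (SE 0.07) in fathers and 0.10 (SE 0.08) in offspring, both above 0, with adjusted p of 0.694 and 0.687 in limma. The interval in offspring, -0.07 to 0.26, is wide beside that of Timm17a.

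**Figure D2:**
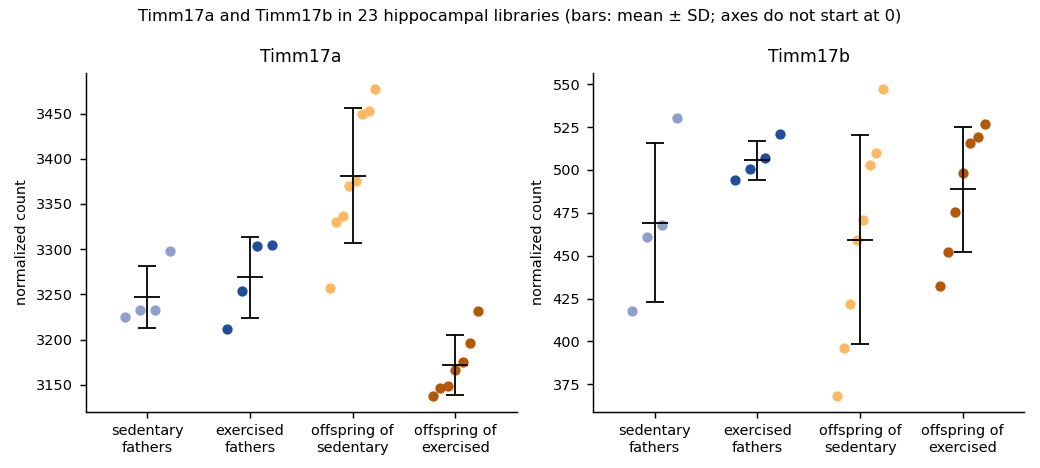
Normalized counts of Timm17a and Timm17b in each library (points), with the group mean and SD (bars); the axes do not start at 0. Timm17a runs from 3137 to 3232 in offspring of exercised fathers, below all 8 offspring of sedentary fathers, while the groups overlap for Timm17b.

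The other members with the smallest p in the offspring did not pass either. Grpel2, the less abundant exchange factor of the motor, ran from 774 to 868 (median 821) in offspring of sedentary fathers and from 735 to 805 (median 790) in offspring of exercised fathers. These ranges overlapped, and the log2 difference was -0.08 (SE 0.04; adjusted p 0.513 in limma). Romo1, a small inner membrane protein whose relative in yeast guards the lateral gate of TIM23, ran from 473 to 746 (median 609) and from 565 to 863 (median 697). It overlapped over most of its range, with a log2 difference of 0.20 (SE 0.10; adjusted p 0.516). Mtx1, a SAM component, differed by 0.11 (SE 0.06; adjusted p 0.528), and Tomm6 by 0.13 (SE 0.07; adjusted p 0.556). Without offspring library 7 of the exercised branch they were at 0.07 and 0.08.

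**Figure D3:**
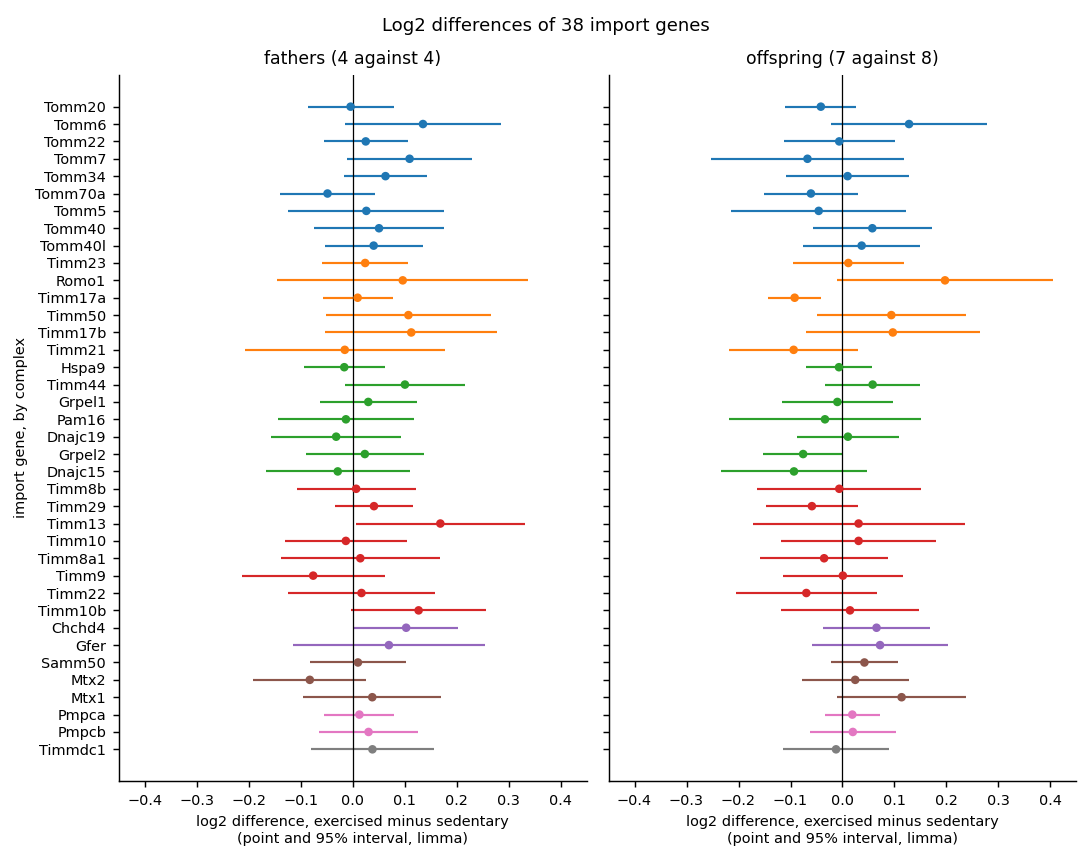
Log2 difference, exercised minus sedentary, with its 95% interval from limma for each import gene, in fathers (left) and offspring (right), coloured by complex as in the plot of levels. Few intervals leave out 0: Timm13 and Chchd4 in fathers and Timm17a in offspring, none of which passed the adjusted threshold.

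Precision set how much could be seen. Over the members, SEs ran from 0.03 to 0.11 on the log2 scale in fathers and from 0.02 to 0.10 in offspring. No bound of a member's 95% interval lay beyond -0.21 or 0.34 in fathers, or beyond -0.25 or 0.41 in offspring, so larger differences than these lay outside the intervals of all 38 members.

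Fathers and offspring of the same branch differed in age, 7 against 5.5 months, as well as in generation, and these cannot be told apart. Sedentary fathers against offspring of sedentary fathers gave 0 of 38 members past the adjusted threshold, against 0.299% of 18377 genes. At an unadjusted p under 0.05 there were 2 members (5.26%), against 12.7% of genes. In edgeR and DESeq2, 0 members passed the adjusted threshold, and 2 and 3 had an unadjusted p under 0.05. Over all 18377 genes, 84 and 369 passed the adjusted threshold there, and 2429 and 2379 had an unadjusted p under 0.05. Timm17a was lower in fathers by a log2 difference of -0.06 (SE 0.02; adjusted p 0.309 in limma), and Timmdc1, an assembly factor of complex I that belongs to the same protein family, by -0.11 (SE 0.05; adjusted p 0.374). Timm17a was singled out on libraries that include these offspring, so nothing is read from its p in this contrast. Hspa9 differed by 0.06 (SE 0.03), Timm29, a TIM22 subunit, by -0.08 (SE 0.04), and Mtx2 by 0.09 (SE 0.05). Their adjusted p lay between 0.412 and 0.506 in limma. The makeup of the tissue differed alongside: thalamus and habenula markers were higher in sedentary fathers for 9 of 9 tested, 6 of them at an unadjusted p under 0.05, and endothelial markers were lower for 7 of 8, 1 of them past the adjusted threshold in limma. With the thalamus and habenula markers as a covariate, 0 members had an unadjusted p under 0.05, against 986 of 18377 genes. The median of members was 0.024, against 0.021 without it, and Timmdc1 was at -0.05. With a choroid plexus covariate 2 members had such a p, against 2789 of 18377 genes, with a median of 0.021. The part of endothelial markers was not tested.

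Exercised fathers against offspring of exercised fathers likewise gave 0 of 38 members past the adjusted threshold, against 0.0653% of genes. At an unadjusted p under 0.05 there was 1 member (2.63%), against 10.1%. The member counts in edgeR and in DESeq2 were also 0 and 1. Over all 18377 genes in DESeq2, 118 passed the adjusted threshold and 1808 had an unadjusted p under 0.05. The member in limma was Tomm20, the presequence receptor. Its libraries read 15890, 16345, 16610 and 16386 normalized counts in exercised fathers and ran from 14292 to 16361 (median 15525) in their offspring. The ranges overlapped, and the log2 difference was 0.09 (SE 0.04, 95% interval 0.01 to 0.16; adjusted p 0.408 in limma). Dnajc15 differed by 0.13 (SE 0.07), Hspa9 by 0.05 (SE 0.03), Timm17a by 0.04 (SE 0.03) and Tomm70a, a receptor for carrier proteins, by 0.08 (SE 0.05). Their adjusted p lay between 0.552 and 0.616 in limma. Here too the offspring are among the libraries on which Timm17a was singled out, so nothing is read from its p. Endothelial markers were lower in exercised fathers than in their offspring for 8 of 8 genes, 1 of them past the adjusted threshold, with summed levels of 6183 to 8411 against 7678 to 10588 normalized counts. Choroid plexus markers were higher in exercised fathers for 10 of 10 genes (median 1.17), and astrocyte and oligodendrocyte markers for 6 of 6 each, 2 of each at an unadjusted p under 0.05. With a choroid plexus covariate 1 member had an unadjusted p under 0.05, with a median of 0.021. With a thalamus and habenula covariate 1 had, with a median of 0.034. Over all genes, the count at that unadjusted p ran from 1311 to 2545 over the 39 alternatives. The part of the other lists was not tested. Tomm70a was at 0.04 without offspring library 7 of the exercised branch.

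The test of whether the effect of exercise differed between generations gave 0 of 38 members, against 0.0% of 18377 genes. 1 member (2.63%), Timm17a, had an unadjusted p under 0.05, against 5.67% of genes. The member counts in edgeR and in DESeq2 were also 0 and 1. Over all genes in DESeq2, 6 passed the adjusted threshold and 1011 had an unadjusted p under 0.05. Since Timm17a was singled out for its difference in offspring, nothing is read from its p here. Of the other members named there, Tomm7 was at 0.18 (SE 0.13; adjusted p 0.920), Mtx2 at -0.11 (SE 0.08), Timm29 at 0.10 (SE 0.06) and Grpel2 at 0.10 (SE 0.06), all with adjusted p of at least 0.905.

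Members differed widely in how steady they were between libraries of the same group. The within-group SD on the log2 scale had a median of 0.0990, close to the 0.101 of 11080 protein-coding genes at least as abundant as the lowest member. Timm17a was the steadiest, at 0.023, and none of the 18377 genes in the table had a lower value. A small spread is part of what gave this gene its small p in offspring, for which it was singled out, and 15 of the 23 libraries are the same, so its rank is a description. Its spread was about that of counting noise alone, 0.025 at its mean of 3270 reads. Pmpca followed at 0.028 and was the third steadiest of all genes. Hspa9 had 0.044, Samm50, the beta-barrel insertase, 0.048, and Tomm20 0.049. In contrast, Romo1 had 0.200, Timm13 0.183, Tomm7 0.162 and Pam16, a regulator of the motor's J protein, 0.157. These were 3.52, 4.33, 4.18 and 2.66 times their counting noise. That ratio did not set them apart from all the steadier members. It was 1.15 for Pmpca, 1.60 for Samm50, 2.95 for Hspa9 and 4.28 for Tomm20.

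The variable members were mostly short genes and moved together. Spearman's rho between spread and exon length was -0.71 over the 38 members. It was -0.00 over the 11080 protein-coding genes at least as abundant as the lowest member. The points share their libraries, and spread was also lower in members with more reads (rho -0.55). Spread was higher in members with a larger share of G and C bases (rho 0.44, against 0.04 over the 11080 genes). The separate part of length, reads and base content was not tested. The 8 members under 1500 bases (Timm8a1, Timm10, Tomm5, Romo1, Timm13, Tomm7, Timm8b and Tomm6) had a median SD of 0.142, against 0.0806 for the 20 of 3500 bases or more. A single axis held 63.8% of the members' within-group variance, and 32 of 38 members loaded on it with the same sign. Genes were not scaled to equal spread, so the most variable members weigh most on this axis. Over the 11309 genes at least as abundant as the lowest member, the first axis held 42.9%. That axis is a separate one from a far larger set, so the shares are not directly comparable. Tomm70a and Tomm20, both long receptor genes, and Hspa9 had loadings of the other sign.

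**Figure D4:**
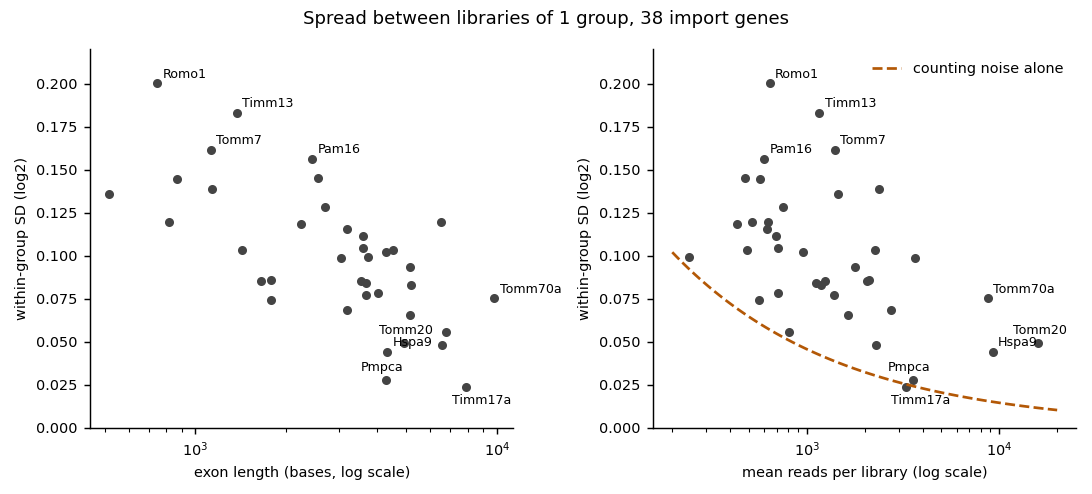
Within-group SD on the log2 scale of each import gene against exon length (left, log axis) and against mean reads per library (right, log axis), with the spread that counting noise alone would give (dashed). Timm17a lies on the dashed line at 0.023, while Romo1, Timm13 and Tomm7 lie far above it at 0.200, 0.183 and 0.162.

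Certain libraries lay at the ends of this axis. Among offspring of sedentary fathers, the mean deviation of the 8 short members from the group mean was -0.22 in library 1 and -0.19 in library 4, and 0.17 and 0.20 in libraries 7 and 8. Among offspring of exercised fathers it was -0.24 in library 1 and 0.19 in library 7. In fathers it stayed between -0.11 and 0.08. The 490 other protein-coding genes under 1500 bases moved with them. They were at -0.20, -0.18, 0.13 and 0.18 in those libraries of offspring of sedentary fathers. In those of offspring of exercised fathers they were at -0.14 and 0.14. In the same order, the 20 members of 3500 bases or more were at -0.04, -0.05, 0.05, 0.06, -0.06 and 0.05. The 7753 other protein-coding genes of that length moved the opposite way, at 0.04, 0.01, -0.04, -0.04, 0.05 and -0.09. Libraries 7 and 8 of the first group carry barcodes of another number series, AD21, as does exercised father 4; in each generation that series holds 1 group alone, so no comparison could be made within it. The part of library preparation, RNA quality or tissue in this axis was not tested. The spread of the short members widens their intervals, and Romo1, Timm13, Tomm6 and Tomm7, which stand among the smallest p above, belong to them.

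**Figure D5:**
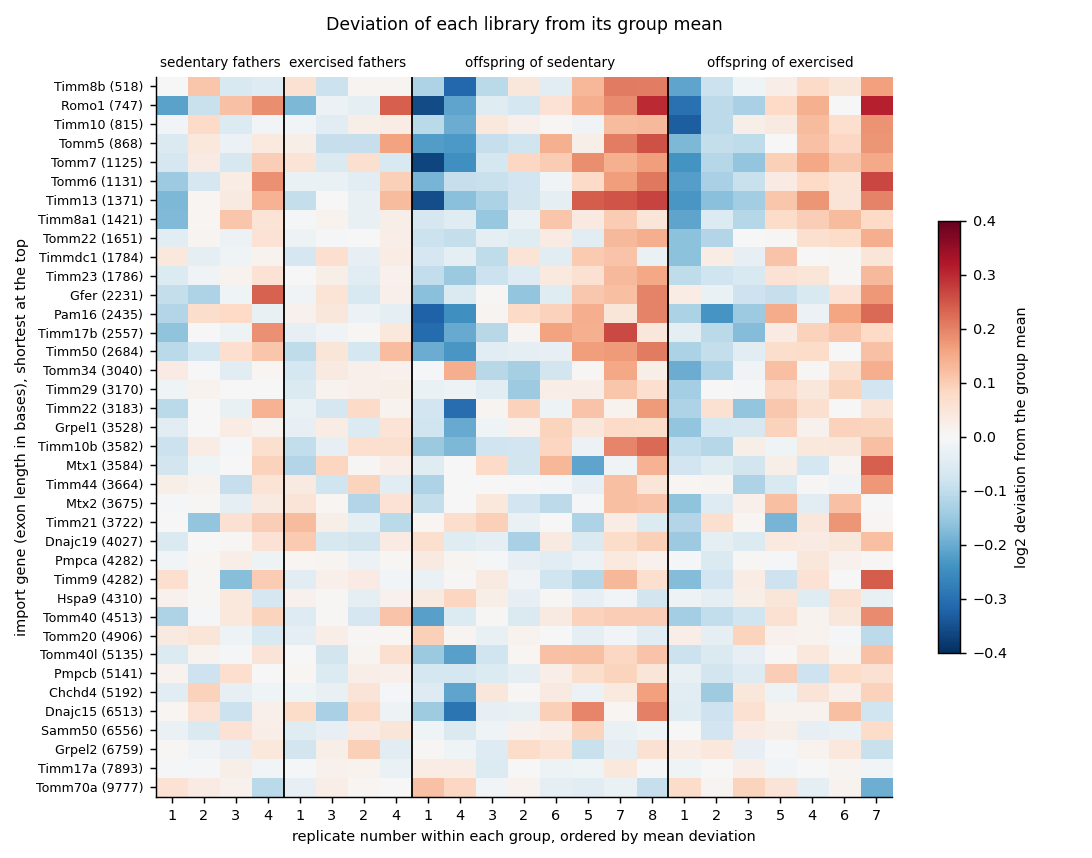
Log2 deviation of each library from its group mean for the 38 import genes, shortest exon length at the top, libraries ordered within each group by their mean deviation. Short genes are low together in offspring libraries 1 and 4 of sedentary fathers and 1 of exercised fathers (means from -0.24 to -0.19 over the 8 short members), and Timm17a, near the bottom, is nearly blank.

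Further genes of the pathway showed no change past the threshold. Of 42 listed genes outside the member list, covering other insertion factors, presequence maturation, matrix folding and quality control, and cytosolic chaperones that deliver precursors, all were tested and 0 passed the adjusted threshold in limma in any of the 5 comparisons. At an unadjusted p under 0.05 there were 3 in fathers (7.14%, all higher), against 8.01% of all genes, and 6 in offspring (14.3%, 1 higher and 5 lower), against 9.85%. The sedentary branch, fathers against offspring, gave 7 (16.7%, against 12.7%), the exercised branch gave 2 (4.76%, against 10.1%), and the difference between generations gave 0, against 5.67%. Among the 10 cytosolic chaperones, 8 had a lower mean in exercised fathers and 9 in offspring of exercised fathers, with median log2 differences of -0.05 and -0.06. Among the 13 genes of matrix folding and quality control, 8 and 7 had a higher mean, with medians of 0.03 and 0.01. For a few members the reads are uncertain. Timm10b, Timm23, Samm50 and Tomm6 share exon sequence with another annotated gene on their strand, Tomm6 also lies opposite its antisense gene Tomm6os, and how reads were assigned there is not given in the sources used here.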

How the data were processed

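Hippocampal RNA was enriched for mRNA and made into stranded libraries, per the labels' protocols. The authors deposited a table of normalized counts for each generation, a signal in which each library's gene counts were scaled by 1 factor (this was read from the values). Build GRCm38, DESeq2 1.10, RSEM 1.2.28 and STAR 2.5.2a are listed, without roles, per the submitters' processing notes. Whether counting used the strand and which library the authors left out as an outlier is not given in the sources used. The authors' deposited comparison tables give log2 fold changes and p-values (adjusted). Dividing by the value of 1 read gave whole reads (within 0.1) for 100% of the values tested. Of 51912 identifiers, 51633 matched GENCODE M21 without version; lengths and coordinates come from it.

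With limma 3.58.1 (R 4.3.3), models were fitted to log2(normalized count + 1) with a mean-variance trend. Tests were two-sided, and p was adjusted over all genes by Benjamini-Hochberg, with a threshold of 0.05. Fold changes on this scale understate the change of low genes. Genes entered with at least 10 normalized counts in at least 4 libraries (fathers, and all 23 together) or 7 (offspring). Comparisons between generations used all 23 libraries in 1 fit with 4 groups. edgeR 4.0.16 and DESeq2 1.42.0 ran on the recovered reads, and further alternatives changed pseudocount, filter, scaling, libraries or covariates. Scripts were tested on simulated data. Groups come from the labels. All 61 pairs of libraries within a group differed beyond sampling noise (chi-square over its degrees of freedom 5.99 to 66.7), including a pair that shares a barcode label (30.5). Reads from PCR are not independent molecules.

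The members and lists were chosen with earlier results of these data known. Genes named are Timm17a in every comparison and the 5 members with the smallest p in each; levels may name any member.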

Additional observations from a re-analysis of the deposited data

Results flagged for a closer look

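Of 152 groups of 4 to 8 libraries tested, 4 for each of the 38 genes, 6 held 1 library far from the rest; chance alone flags about 1 in 20 groups. Mtx1 read 872.4 normalized counts in offspring of exercised fathers 7, against 701.15 to 751.02 in the other libraries of its group, and Timm44, which tethers Hspa9 to the translocase, read 1596 there, against 1298.23 to 1424.02. Tomm6 read 2612 in exercised father 4, against 2372.13 to 2399.19. Timm29 read 2634 in exercised father 1, against 2772.27 to 2790.3. Timm17a read 3298 in sedentary father 3, against 3225.04 to 3233.11. Tomm20 read 16910 in offspring of sedentary fathers 1, against 15354 to 15994. Offspring library 7 of the exercised branch and library 1 of the sedentary branch are also at the ends of the members' shared axis. The part of that axis in these values was not tested.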

How the results depend on the processing

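The count of members past the adjusted threshold stayed at 0 in all 5 comparisons under every alternative run, except DESeq2 in offspring, which gave 1 (Timm17a). Over 905 alternative values of the genes named by rule, 904 kept direction and side of the threshold, 1 (that of Timm17a) passed it, and 0 reversed. Apart from Timm17a, these genes were named for a small p in the main fit, where none passed. The alternatives also share most libraries. Such a count was largely set in advance and is a description. Timm17a in offspring ran from -0.10 to -0.09 when 1 library was left out, and was -0.06 with quantile normalization, -0.07 with the GC trend removed and -0.07 with the length trend removed; the last of these and the leaving out of pairs of sedentary fathers were chosen after seeing the data. The median of members in offspring lay between -0.013 and 0.039 and was below 0 in 5 of 31 alternatives; in fathers it lay between 0.008 and 0.062. Counts over all genes moved more, and the cause was not tested. In fathers the 0 genes became 66 with DESeq2 and 1 without sedentary fathers 1 and 2. In offspring they became 48 with DESeq2, 1 with array weights and 0 to 1 when a library was left out. Between sedentary fathers and offspring of sedentary fathers the 55 genes became 369 with DESeq2, 84 with edgeR, 221 with array weights, 189 with a choroid plexus covariate, 157 without sedentary fathers 1 and 2, 32 without a filter, 24 with quantile normalization, 16 with 1 value per title stem, 8 without the AD21 libraries, 8 with the length trend removed, 4 with the GC trend removed, 3 with these 2 groups alone, and 0 with a thalamus and habenula covariate or without sedentary fathers 3 and 4; leaving out 1 library gave 0 to 135. Between exercised fathers and offspring of exercised fathers the 12 genes became 118 with DESeq2, 96 with array weights, 25 with the length trend removed, 5 with quantile normalization, 3 without a filter, 3 with 1 value per title stem and 3 with these 2 groups alone; leaving out 1 library gave 0 to 28. In the difference between generations the 0 genes became 6 with DESeq2, 4 without a filter and 13 without sedentary fathers 1 and 2. No paired analysis was possible because the labels carry no replicate number shared between groups.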
